A study of Mus musculus with 8 samples.

Results

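The genes described here mark the wall of brain blood vessels. The set lists 38 genes by their known roles and covers endothelial cells, the proteins of the blood-brain barrier, pericytes and vascular smooth muscle. Of the 38, 37 had a probe set assigned to 1 gene, out of 18194 genes measured in all, and each was read from its brightest such probe set. Ly6c1, an endothelial surface antigen gene, shared its probe set with another Ly6c gene and was not analysed here. Striatum was taken from 8 mice of 22 months on a C57BL/6 X CBA F1 hybrid background, with 1 array per mouse. The 4 CHL2 mutants carried 150 CAG repeats from exon 1 of the human Huntington's disease gene in both copies of the mouse's own Htt gene, so the repeat was not limited to 1 cell type by a transgene promoter. The 4 controls were wild-type mice of the same age. Mutants 141, 153 and 154 and wild-type 161 were female, and mutant 191 and wild-type 170, 180 and 200 were male.

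Endothelial cells of brain capillaries are sealed to each other by tight junctions and express transporters that carry glucose, amino acids and hormones inward and pumps that push drugs and other foreign compounds back to the blood. Pericytes share the basement membrane of the capillary and are recruited and kept there by platelet-derived growth factor, while smooth muscle wraps arterioles. Signals of the VEGF, angiopoietin, Notch and Wnt families build this wall and maintain it.

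Values are log2 RMA signals, and a log2 change is mutant minus wild type with sex as a term in limma's linear model. A gene was said to fall or rise at a Benjamini-Hochberg adjusted p under 0.05 over all 18194 genes. The tissue labels held in that Ppp1r1b, Drd1 and Penk, markers of striatal medium spiny neurons, were strong in both genotypes. Their means were 12.12, 11.75 and 12.34 in wild-type mice and 11.06, 10.42 and 10.62 in mutants. These genes cannot show whether neighbouring tissue was included. Of genes named after their values were seen, the cortical neuron gene Slc17a7 ran from 4.59 in mutant 191 to 8.03 in mutant 154. The choroid plexus gene Ttr ran from 10.78 in mutant 153 to 14.05 in mutant 141. Array medians lay between 4.95 and 4.98. The 3' minus 5' signal difference of the Gapdh and beta-actin controls, a measure of RNA integrity, was 2.01 in wild-type 170 and between 0.78 and 0.97 in the other 7 mice (two-sided exact permutation test between genotypes, p = 0.714). In whole tissue, fewer vascular cells and less RNA per vascular cell cannot be told apart.

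The upstream stretches below are shown because they belong to the members with the lowest p that had a single start in the RefSeq promoter table (GRCm38.p6, 25 of the 38 genes matched), and because they stand for a pump, a tight junction protein and a growth factor receptor. Each holds the 250 bases before the start, 5′ to 3′ on the gene's strand. Capitals mark AGGAAG on either strand, a core of the sites bound by ETS factors, which endothelial genes commonly use.
Abcb1a, chr5:8566841-8567090, plus strand: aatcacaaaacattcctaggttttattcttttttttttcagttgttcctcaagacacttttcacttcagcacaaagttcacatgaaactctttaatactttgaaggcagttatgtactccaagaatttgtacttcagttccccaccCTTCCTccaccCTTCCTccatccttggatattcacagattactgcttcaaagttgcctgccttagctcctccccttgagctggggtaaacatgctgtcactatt
Cldn5, chr16:18776597-18776846, plus strand: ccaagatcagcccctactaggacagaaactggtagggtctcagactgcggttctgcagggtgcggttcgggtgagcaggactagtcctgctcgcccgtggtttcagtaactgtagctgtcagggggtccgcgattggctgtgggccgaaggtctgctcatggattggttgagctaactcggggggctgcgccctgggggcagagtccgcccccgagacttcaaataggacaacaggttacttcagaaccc
Flt1, chr5:147726012-147726261, minus strand: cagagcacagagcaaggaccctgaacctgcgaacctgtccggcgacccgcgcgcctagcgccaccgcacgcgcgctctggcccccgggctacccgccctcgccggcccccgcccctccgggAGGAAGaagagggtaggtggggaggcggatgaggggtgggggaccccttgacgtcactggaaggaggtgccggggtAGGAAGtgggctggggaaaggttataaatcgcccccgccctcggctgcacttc
The Abcb1a stretch held the motif at 2 positions on the opposite strand, beginning 104 and 93 bases before the start, inside a near-repeat. Flt1 held it at 2 positions on its own strand, 129 and 53 bases before the start, and Cldn5 at 0. Among the 25 members with an entry, 10 (40.0%) held AGGAAG in this window, against 29.2% of 27025 genes in the table. The letters ACAAT, a core bound by SOX factors such as Sox17 and Sox18, stood in 8 of the 25, against 28.3% of all. These are letter matches alone.

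Few vascular genes passed the test between the genotypes. Of 37 measured members 1 fell, the endothelial cadherin gene Cdh5, and 0 rose, which is 2.70% of them, while 12.4% of all genes tested were called and 6.01% were called lower. All 37 log2 changes lay between -0.51 for Cldn5 and 0.24 for Abcg2. The signs were uneven, with 27 of 37 negative (73.0%), against 48.8% of all genes tested, and the median log2 change was -0.17 against 0.01 over all genes. At an unadjusted p under 0.05 there were 7 members (18.9%), all negative, against 25.8% of all genes. The values of the genotypes did not overlap for 3 members, Cdh5, Flt1 and Acta2 (8.11%), against 20.7% of all genes.

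The 95% intervals bound these changes in array signal. For 28 of the 37 members (75.7%) the interval lay inside a 1.5-fold change in either direction, and for all 37 it lay inside a 2-fold change, against 84.4% and 97.1% of all genes tested. The members varied more between mice of a genotype than the middle gene of the table, with a median SD of 0.18 in wild-type mice and 0.21 in mutants, against 0.12 and 0.13. Their median absolute log2 change was also larger, at 0.18 against 0.13 over all genes. For 8 members, Tie1, Cdh5, Pecam1, Ocln, Icam2, Emcn, Anpep and Myh11, all 8 values lay under 5, the log2 of a signal of 32, so their changes rest on weak signal. RMA compresses changes of dim genes, so the intervals of these 8 may not bound a change in the transcript.

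**Figure D1:**
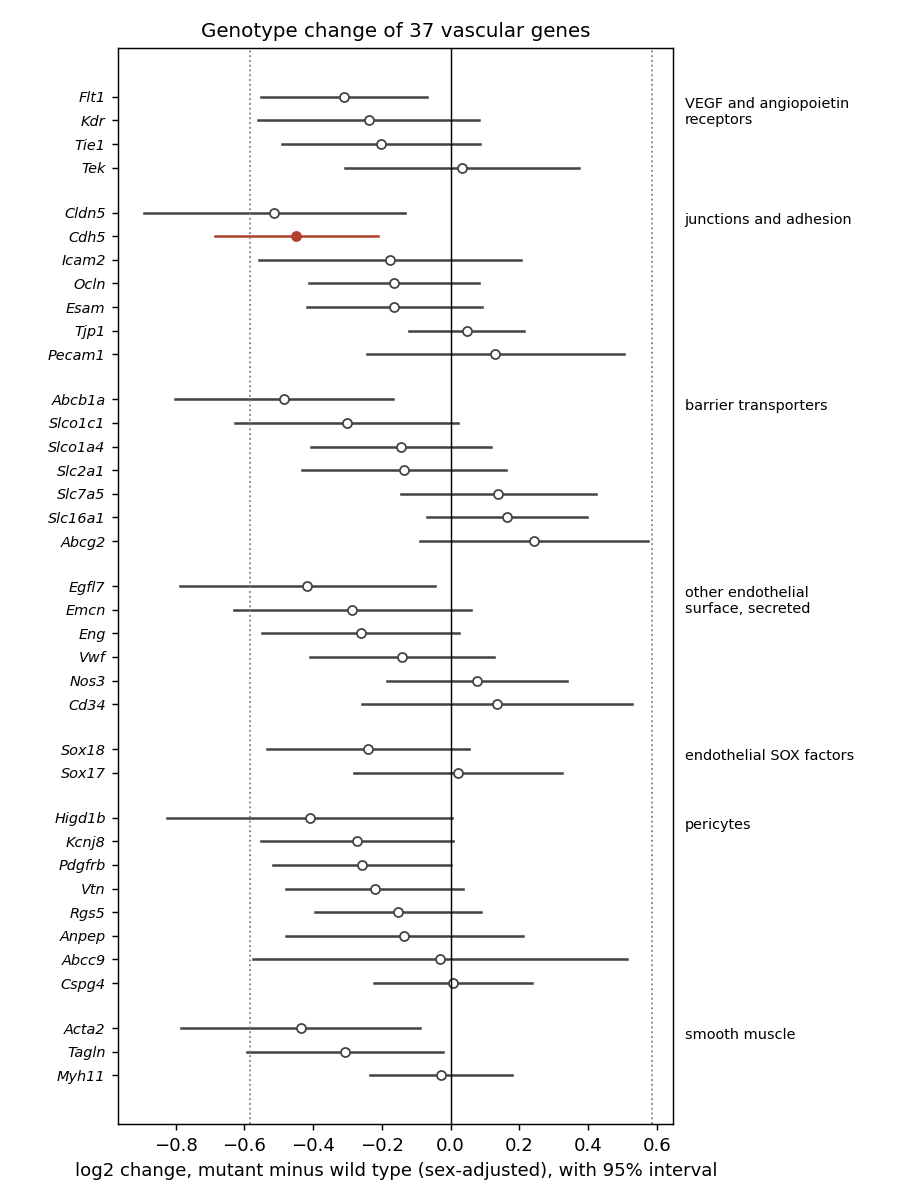
Log2 change between the genotypes (mutant minus wild type, sex-adjusted, horizontal axis) of the 37 measured vascular genes by role, with limma's 95% interval as a line and dotted lines at a 1.5-fold change. The filled red point is Cdh5, the 1 gene past the threshold, and most open points lie left of 0 with intervals that reach it.

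Cdh5 encodes VE-cadherin, which joins neighbouring endothelial cells at adherens junctions. Its values were 4.83 in wild-type 161, 4.63 in 170, 4.63 in 180 and 4.69 in 200, and 4.60 in mutant 141, 4.17 in 153, 4.35 in 154 and 4.20 in 191. Every mutant lay below every wild-type mouse, with mutant 141 just under the lowest of them. The gene fell by 0.45 on the log2 scale (SE 0.11, limma adjusted p = 0.0207), a 1.36-fold change from 4.69 ± 0.10 (SD, n = 4) to 4.33 ± 0.20. The change was -0.45 among females and -0.44 among males. The call was lost without wild-type 161 (adjusted p = 0.167) and without mutant 191 (adjusted p = 0.169), each the only mouse of its sex and genotype, and in 7 of the 8 fits that left out 1 mouse and the sex term, where the adjusted p was at most 0.0853. A second Cdh5 probe set, dimmer still, had a log2 change of -0.09 (adjusted p = 0.700).

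The other junction and adhesion genes did not pass. Cldn5 encodes claudin-5, the main claudin of the tight junctions that close the barrier. It measured 8.23 in wild-type 161, 7.54 in 170, 7.19 in 180 and 7.38 in 200, against 7.36, 7.22, 7.22 and 7.31 in mutants 141, 153, 154 and 191. Wild-type 161 stood well above the other 7 mice, which overlapped. Its log2 change was -0.51 (SE 0.17, adjusted p = 0.0821), and it was -0.06 without wild-type 161 (adjusted p = 0.890) and -0.96 without mutant 191, where Cldn5 passed (adjusted p = 0.00966). The mean deviation (log2, from the mean of each gene over the 8 mice) of 10 choroid plexus and ependyma genes was also high in wild-type 161, at 0.84, though it was higher in mutant 141, at 1.01, where Cldn5 measured 7.36, and its part in the Cldn5 values was not tested.

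Tjp1, which encodes the tight junction scaffold ZO-1 and is also expressed outside vessels, was the steadiest member. All of its values lay between 8.91 and 9.02, and its log2 change was 0.05 (SE 0.08, 95% interval -0.12 to 0.21). Occludin (Ocln) had a log2 change of -0.17, the junctional molecule gene Esam one of -0.16, the adhesion molecule gene Icam2 one of -0.18 and Pecam1, the gene of the endothelial marker CD31, one of 0.13. Their adjusted p ran from 0.404 to 0.703. A second Ocln probe set of like brightness, tested among all single-gene probe sets, had a log2 change of -0.36 (adjusted p = 0.105).

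Among receptors, Flt1, which encodes the VEGF receptor VEGFR1, came closest to the threshold. It measured 7.45, 7.44, 7.44 and 7.71 in wild-type 161, 170, 180 and 200, and 7.21, 7.34, 7.36 and 7.05 in mutants 141, 153, 154 and 191. The groups did not overlap, and wild-type 200 and mutant 191 stood at the ends. The log2 change was -0.31 (SE 0.11, adjusted p = 0.0971). Of the other 3 Flt1 probe sets, tested among all single-gene probe sets, 1 fell with a log2 change of -0.54 (adjusted p = 0.0279), 1 had a change of -0.39 (adjusted p = 0.124), and 1 with all values under 5 had one of -0.06. Kdr, the gene of the main signalling VEGF receptor, had a log2 change of -0.24, the angiopoietin receptor gene Tek one of 0.03 and Tie1, its co-receptor, one of -0.20, with adjusted p of 0.351, 0.924 and 0.378.

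Barrier transporters held the widest range of changes and no call. Abcb1a encodes P-glycoprotein, the drug efflux pump of the luminal membrane. It measured 7.05, 6.66, 6.51 and 7.12 in wild-type 161, 170, 180 and 200, and 6.61, 6.51, 6.74 and 6.22 in mutants 141, 153, 154 and 191. Wild-type 170 and 180 lay among the mutants, and wild-type 161 and 200 lay above them all. The log2 change was -0.49 (SE 0.14, adjusted p = 0.0511), just short of the threshold, and it was -0.42 among females and -0.55 among males. Abcb1a passed in 6 other settings, among them each array centred on its median (adjusted p = 0.0437) and without wild-type 180 (adjusted p = 0.0359), but its log2 change without the sex term was -0.32 (adjusted p = 0.192). On a second and dimmer Abcb1a probe set, where 7 of 8 mice measured under 5, the log2 change was -0.19 (adjusted p = 0.577).

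Abcg2, the gene of the other main efflux pump, had a log2 change of 0.24 (SE 0.15, adjusted p = 0.357), opposite in sign to Abcb1a. Slc2a1, the gene of the glucose carrier GLUT1, had a change of -0.14, between 0.07 among females and -0.34 among males. The organic anion carrier genes Slco1a4 and Slco1c1, the latter the carrier of thyroxine, had changes of -0.14 and -0.30. Slc7a5, which encodes the large neutral amino acid carrier LAT1, and Slc16a1, the gene of the monocarboxylate carrier MCT1, which oligodendrocytes also use, had changes of 0.14 and 0.17. The adjusted p of these 6 carriers and pumps ran from 0.228 to 0.597.

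**Figure D2:**
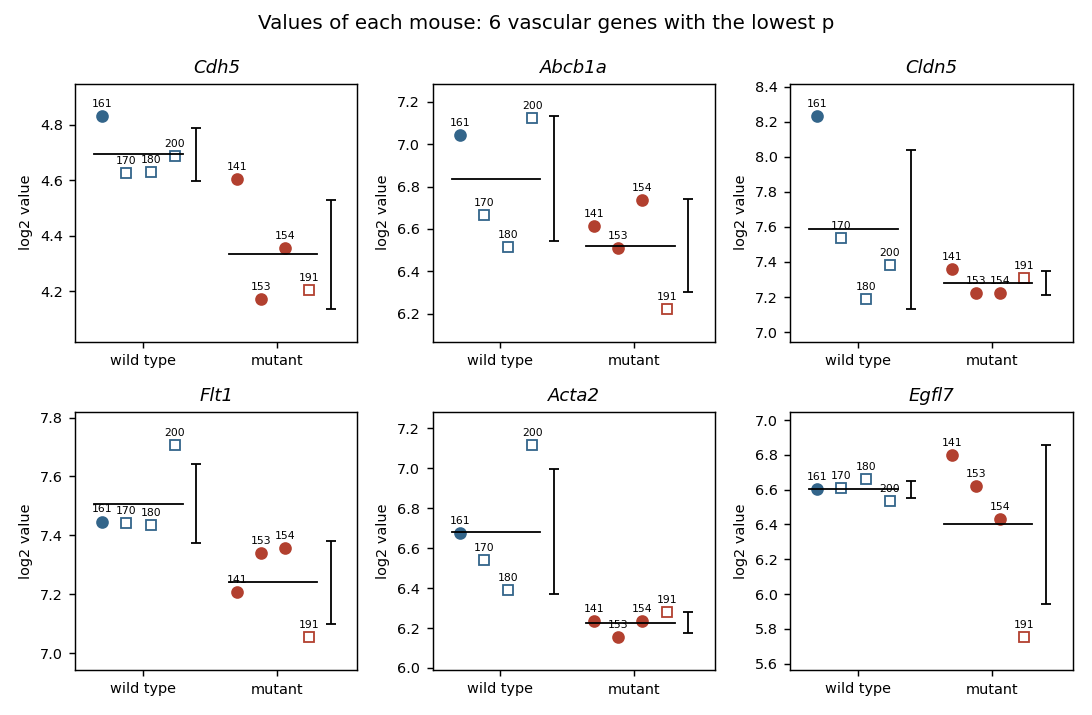
Log2 RMA value of each mouse (vertical axis, a separate range in each panel) for the 6 vascular genes with the lowest unadjusted p, with females as filled circles, males as open squares, the group mean as a line and the SD of 4 mice as a bar. Wild-type 161 stands apart at 8.23 for Cldn5 and mutant 191 at 5.75 for Egfl7, and the groups do not overlap for Cdh5, Flt1 and Acta2.

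Of the remaining endothelial genes, Egfl7, a matrix factor secreted by endothelium, had the lowest p. It measured 6.60, 6.61, 6.66 and 6.54 in wild-type 161, 170, 180 and 200, and 6.80, 6.62, 6.43 and 5.75 in mutants 141, 153, 154 and 191. The female mutants spread around the wild-type level, and mutant 191 lay below every other mouse. Its log2 change of -0.42 (SE 0.17, adjusted p = 0.141) was 0.01 without mutant 191 and -0.85 without wild-type 161, where it passed (adjusted p = 0.0143). The other 3 Egfl7 probe sets, tested among all single-gene probe sets and with every value above 5, had log2 changes of 0.04, -0.17 and -0.31 (adjusted p = 0.906, 0.264 and 0.150). The SD of the mutants was 0.15 to 0.18 on these 3, against 0.46 on the brightest, and the genotypes did not overlap on the last. Mutant 191 was also the lowest of the 8 mice for Vwf, the gene of von Willebrand factor, at 4.55, for Eng, the gene of the TGF-beta co-receptor endoglin, at 6.42, and for the sialomucin gene Emcn, at 3.78. Over the 6 measured genes of this group the mean deviation of a mouse from the gene means was -0.37 in mutant 191, 0.08 to 0.18 in the female mutants and -0.20 to 0.10 in wild-type mice. The same measure over 3 cortical neuron genes was -1.25 in mutant 191, -0.39 to 1.18 in the other mutants and -0.36 to 0.79 in wild-type mice, and its part in the endothelial values was not tested.

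Log2 changes of Eng, Emcn and Vwf were -0.26, -0.29 and -0.14, with adjusted p of 0.240, 0.289 and 0.535. Cd34, the gene of another sialomucin of endothelium, and Nos3, the endothelial nitric oxide synthase gene, had changes of 0.14 and 0.08. Sox17 and Sox18 encode related transcription factors that act in endothelial and arterial differentiation. The log2 change was 0.02 for Sox17 (adjusted p = 0.949) and -0.24 for Sox18 (adjusted p = 0.296). On a second Sox17 probe set of like brightness it was -0.16 (adjusted p = 0.526).

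Of 11 measured members of pericytes and smooth muscle, 0 passed in limma's fit and 2 had an unadjusted p under 0.05 (18.2%, against 25.8% of all genes). The log2 change was negative for 10 of them (90.9%, against 48.8% of all genes), with a median of -0.22. Their mean deviation was -0.14 to -0.07 in mutants and -0.03 to 0.24 in wild-type mice. The ranges did not overlap, but the gap between mutant 154 and wild-type 180 was small beside the spread of the wild-type mice. Mean deviations are not adjusted for sex. Lists outside the members also did not overlap, with wider gaps. Barrier Wnt and Notch signalling genes had -0.12 to -0.05 in mutants and 0.03 to 0.15 in wild-type mice. Leukocyte adhesion genes had -0.14 to -0.05 and 0.05 to 0.15. For the 26 endothelial and barrier members, 17 negative with a median of -0.17, the same measure was -0.19 to 0.06 in mutants and -0.08 to 0.13 in wild-type mice, so these ranges overlapped.

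Acta2, which encodes the smooth muscle actin of arterioles, led the mural genes. Wild-type 161, 170, 180 and 200 measured 6.68, 6.54, 6.39 and 7.12, and mutants 141, 153, 154 and 191 measured 6.23, 6.15, 6.24 and 6.28. The mutants lay within a narrow band under all wild-type values, of which that of mouse 200 was the highest. Its log2 change was -0.44 (SE 0.16, adjusted p = 0.104), and it passed without the sex term (log2 change -0.46, adjusted p = 0.0373). Acta2 was read from a probe set whose suffix marks probes that can match related transcripts, and its other 2 probe sets, with all values under 5, had changes of 0.00 and 0.01. For Tagln, the gene of the actin-binding protein SM22, the log2 change was -0.31 (adjusted p = 0.161), and for the smooth muscle myosin gene Myh11, near background, it was -0.03.

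Pdgfrb encodes the receptor by which pericytes respond to platelet-derived growth factor. It measured 6.83, 7.28, 6.87 and 7.03 in wild-type 161, 170, 180 and 200, and 6.40, 6.39, 6.61 and 6.90 in mutants 141, 153, 154 and 191. Mutant 191 lay among the wild-type mice and the other 3 mutants lay below them. The log2 change was -0.26 (SE 0.12, adjusted p = 0.194), -0.43 without the sex term, where it passed (adjusted p = 0.0485), and 0.08 on its second probe set.

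Kcnj8 and Abcc9 encode the pore and the regulatory subunit of the potassium channel of pericytes and smooth muscle that is gated by ATP, and they are next to each other on chromosome 6, the 1 neighbouring pair among the 38 genes. The log2 change was -0.27 for Kcnj8 (SE 0.13, adjusted p = 0.206) and -0.03 for Abcc9 (SE 0.25, adjusted p = 0.960). The Abcc9 difference was 0.44 among females, with wild-type 161 lowest of the wild-type mice at 5.02, and -0.50 among males. Vtn, the gene of vitronectin, had a change of -0.22, Rgs5, a G protein regulator gene of pericytes, one of -0.15, the aminopeptidase gene Anpep one of -0.13 and Higd1b one of -0.41. Cspg4, the gene of the proteoglycan NG2, which oligodendrocyte precursors also carry, had a change of 0.01, and -0.12 on a dimmer probe set. None of these 5 passed, with an adjusted p from 0.199 to 0.981.

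**Figure D3:**
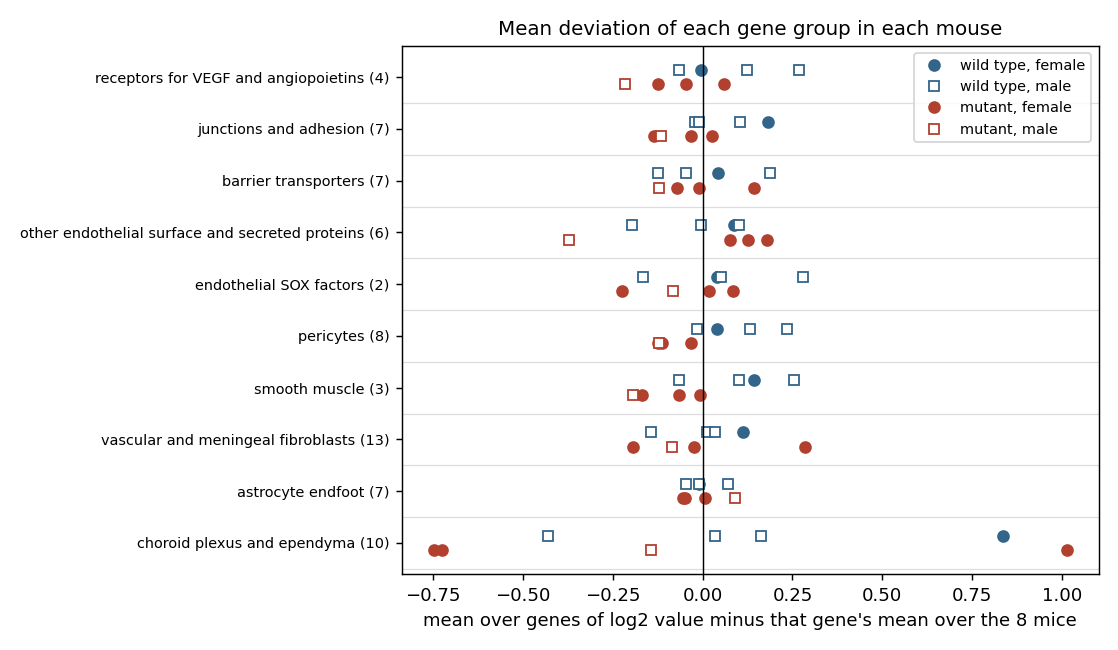
Deviation of each mouse from the 8-mouse mean of a gene, averaged over the genes of each group (log2, horizontal axis, number of genes in brackets), with circles for females and squares for males. Mutant 191 stands apart at -0.37 in the group of other endothelial surface and secreted proteins, the pericyte genes are lower in all 4 mutants by a small gap, and choroid plexus genes range from -0.75 to 1.01 within the mutants alone.

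Sex was unbalanced between the groups, so each sex was also read on its own. Among females the 3 mutants were compared with wild-type 161, and among males mutant 191 with the 3 wild-type mice, which gives a pair of differences from separate mice. Both were negative for 21 of 37 members and both positive for 4, against 5760 and 6254 of all 18194 genes. The share with 1 sign in both sexes was 67.6%, against 66.0% of all genes. For 11 members the difference was positive among females and negative among males, and for 1, Icam2, the reverse, against 3920 and 2260 of all genes. The median difference was -0.12 among females and -0.20 among males, against 0.03 and -0.02 over all genes.

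The test of an interaction between genotype and sex called 0 of 37 members in limma's fit, with 4 at an unadjusted p under 0.05, against 0.0055% and 5.04% of all genes. Its lowest unadjusted p were for Cldn5, at -0.90 (SE 0.21), and Egfl7, at 0.86 (SE 0.21), and its largest value was 0.95 (SE 0.42) for Abcc9, each with an adjusted p of 0.969. For female minus male, the fit with genotype and sex as its only terms called 0 of 37 members. There 9 of the 37 had an unadjusted p under 0.05, and the shares of all genes were 0.0275% and 10.6%.

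**Figure D4:**
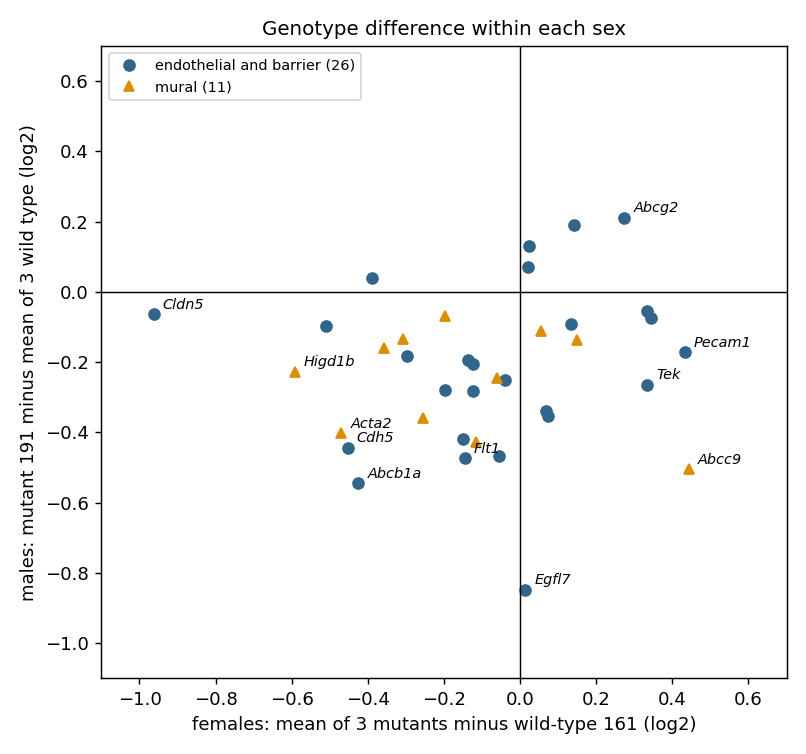
Genotype difference on the log2 scale of the 37 vascular genes within females (horizontal axis, mean of 3 mutants minus wild-type 161) and within males (vertical axis, mutant 191 minus the mean of 3 wild-type mice). Genes in the lower left are lower in mutants of both sexes (21 of 37, against 5760 of all 18194 genes). Cldn5 lies far left and Egfl7 far down, each set apart in 1 sex.

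The signalling, matrix and endothelial genes around the members were also read from lists. Of 132 measured, 12 fell and 3 rose (11.4%, against 12.4% of all genes), with a median log2 change of -0.12. Of these 15 calls, 4 stood without wild-type 161 and 3 without mutant 191, where 2 other genes were called, and those of Jag1 and Ackr1 stood in both. Over all genes the count went from 2258 to 864 and 702 in these fits. With the sex term left out as well, the counts for the 132 genes were 13 and 15.

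Of 15 vascular ligands 1 rose and 1 fell. Tgfb2, a transforming growth factor gene, rose by a log2 change of 0.43 (adjusted p = 0.0465), and the ephrin gene Efnb2, an arterial marker that neurons also express, fell by 0.40. As partners of the receptors above, 3 ligands were picked after their values were seen, and all 3 were positive. Vegfa, a ligand of Flt1 and Kdr, stood at 0.08 (adjusted p = 0.774). Angpt1, a Tek ligand, stood at 0.28 (adjusted p = 0.236) and Pdgfb, a Pdgfrb ligand, at 0.27 (adjusted p = 0.0524). Related ligands, also named after their values were seen, were negative. These were Angpt2, the other angiopoietin gene listed, at -0.23 (adjusted p = 0.203), Vegfc at -0.18 and Vegfd at -0.41 (adjusted p = 0.0631). Across the 15 ligands 9 changes were positive and 6 negative, with a median of 0.08. In 22 genes of barrier Wnt and Notch signalling, 2 fell and 0 rose. Jag1, a Notch ligand that neurons also express, fell by 1.10 (SE 0.12, adjusted p = 0.000338), and the Notch target gene Hey1 by 0.44.

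Among 34 other endothelial genes 2 fell and 0 rose, with a median of -0.16. Podxl, the gene of the sialomucin podocalyxin, fell by 0.53 (adjusted p = 0.0182), and the flow-induced transcription factor gene Klf2 by 0.44 (adjusted p = 0.0308), a call that was lost without the sex term (log2 change -0.17, adjusted p = 0.595). In 7 leukocyte adhesion genes 2 fell and 0 rose. Ackr1, a chemokine-binding receptor gene of venules, fell from 9.07 ± 0.08 (SD, n = 4) to 8.44 ± 0.07 (log2 change -0.64, adjusted p = 0.000948), and the adhesion molecule gene Alcam, which neurons also express, by 0.50. Which cells of the tissue gave the Ackr1 signal was not tested. Of 8 genes of caveolae and vesicle transport, the endocytic gene Ehd4 rose by a log2 change of 0.70 and Plvap, a marker of fenestrated vessels, fell by 0.35.

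Basement membrane genes numbered 21, of which Agrn (agrin) and Sparc fell by 0.28 and 0.31, and Sparc did not pass once sex was dropped (adjusted p = 0.494). In 18 other mural genes, the kinase gene Mylk and Art3 fell by 0.49 and 0.50 and the sphingosine phosphate receptor gene S1pr3 rose by a log2 change of 0.60. Neither Mylk nor S1pr3 passed once sex was dropped (adjusted p = 0.134 and 0.172). Over other settings the call was lost in 20 of 25 for Sparc, 20 of 24 for S1pr3 and 15 of 25 for Agrn. It was lost in 15 of 24 for Klf2, 14 of 25 for Plvap, 13 of 24 for Mylk and 11 of 25 for Tgfb2. The rest of the 15 calls were each lost in 0 to 4 settings. Among 7 genes of the astrocyte endfoot, which covers the vessel, 0 passed in limma's fit and 1 had an unadjusted p under 0.05 (14.3%, against 25.8% of all genes).

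Genes of other cells were read in the same fit. Over all genes it called 12.4%, with 25.8% at an unadjusted p under 0.05 and 48.8% of changes negative. Of 7 astrocyte genes 1 passed. Gfap rose by a log2 change of 0.48 (adjusted p = 0.0341), though wild-type 161 (9.22) lay above mutant 191 (9.18). The other 6 had negative changes, the list's median was -0.16, and 4 of the 7 had an unadjusted p under 0.05, Gfap and, named after their values were seen, the glutamate transporter gene Slc1a2 (-0.22), Fgfr3 (-0.23) and Sox9 (-0.31). Of 13 fibroblast, 8 microglial, 5 perivascular macrophage and 6 blood genes 0 passed in limma's fit, with 1, 1, 1 and 0 at an unadjusted p under 0.05. Of 10 choroid plexus and ependyma genes 1 fell, Ccdc153, by 0.76, and all 10 had negative changes, with a mean deviation of -0.75 to 1.01 in mutants and -0.43 to 0.84 in wild-type mice. In 7 medium spiny neuron genes 7 fell, among them Penk (log2 change -1.63), Rgs9 (-1.54) and Adcy5 (-1.45), with a median of -1.42. Of 6 oligodendrocyte genes 1 fell, Mobp, by 0.38, with 3 positive and 3 negative changes. In this list 4 genes had an unadjusted p under 0.05. They were Mobp and, named after their values were seen, Mag (0.31), Cnp (0.21) and Cldn11 (-0.38). Of 5 genes of oligodendrocyte precursors 1 rose, Olig1, by a log2 change of 0.43, and all 5 changes were positive. Over other settings the Gfap call was lost in 6 of 25 and the Mobp call in 4 of 25. The Olig1 call was lost in 3 of 25 and the Ccdc153 call in 3 of 24. For cortical neurons, 0 of 3 genes passed in limma's fit, with 2 at an unadjusted p under 0.05. All 3 changes were negative, with a median of -0.98. The part of shifts in cell makeup in the vascular values was not tested.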

How the data were processed

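Deposited log2 values were made by the authors with RMA and affy, per the submitters' processing notes, which name no version in the sources used here. Which arrays were normalized as 1 set is not known. RMA brings arrays to 1 distribution, so a shift shared by most genes cannot be seen, and it compresses changes of dim genes. Of 45101 probe sets, 64 controls were left out, 34945 had 1 gene symbol in the platform annotation, 932 had several and 9160 were not listed. Each gene was its brightest single-gene probe set by mean over the 8 arrays (18194 genes).

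From these values lmFit and eBayes of limma 3.58.1 in R 4.3.3 were fitted with genotype and sex as terms, with Benjamini-Hochberg adjustment over all genes, and tested on simulated data. Single values per array used two-sided exact permutation tests over 70 assignments (smallest p 0.0286). The mouse numbers name separate animals. The 4 arrays per group limit the precision.

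Members and lists were chosen with earlier results of these data known. Named genes are all members, the 3 genes with the lowest adjusted p among those past the threshold of each other list, and Ppp1r1b, Drd1 and Penk. Values for every mouse are given for the 6 members with the lowest p, and for Pdgfrb as an addition chosen after its values were seen.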

Additional observations from a re-analysis of the deposited data

Results flagged for a closer look

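Among the 37 vascular genes, 74 groups of 4 mice were checked for a mouse far from the other 3, and 5 were found, where chance gives about 1 in 20. Flt1 measured 7.71 in wild-type 200, and the rest of its group 7.44 to 7.45. Wild-type 170 stood apart for 3 genes. Abcg2 measured 5.97 there, against 6.32 to 6.36, Sox18 measured 4.85, against 5.11 to 5.16, and Kcnj8 measured 5.60, against 5.30 to 5.32. Anpep measured 4.21 in mutant 141 and 3.70 to 3.79 in the rest of its group. In the same mouse 170 the 3' minus 5' difference of the control probe sets was 2.01, beside 0.85 to 0.88 in its group, and its part in these 3 genes was not tested.

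Among the other named genes Plvap was 7.50 in wild-type 161, against 7.59 to 7.60, and Ackr1 was 8.55 in mutant 141, against 8.39 to 8.42. S1pr3 was 5.59 in mutant 153, against 6.27 to 6.34, and 5.31 in wild-type 161, against 5.81 to 5.90. Rgs9 was 11.89 in wild-type 200, against 11.70 to 11.73, and Drd1 was 10.65 in mutant 191, against 10.33 to 10.35.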

How the results depend on the processing

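The count of vascular genes called between the genotypes, 1 of 37, was 3 without the sex term, with 2258 and 2758 of all 18194 genes called. It was 2 with a trended and robust prior, after quantile normalization again and with each array centred on its median. Over all genes these settings called 2767, 2280 and 2167. Without genes below the median level only 19 members were measured, Cdh5 not among them, and the 2 called were Cldn5 and Abcb1a. In that setting 2541 of 9097 genes were called. With values floored at log2 of 32 and with no moderation the vascular count was 0, and 4 and 3 of these genes had an unadjusted p under 0.05. Over all genes 1600 and 1325 were called there. At an adjusted p under 0.01 the vascular count was 0, with 7 at an unadjusted p under 0.05, and at an adjusted p under 0.1 it was 4. At these 2 thresholds 1029 and 3218 of all 18194 genes passed. Leaving out each mouse in turn gave 1 to 2 vascular calls with sex as a term, but the gene was Cldn5 without mutant 191 and Egfl7 without wild-type 161. With no sex term there were 0 to 1. The gene was then Kcnj8 without mutant 153, Pdgfrb without mutant 191 or wild-type 161, and Acta2 without wild-type 170 or 180. Over all genes these fits called 702 to 2258 with sex as a term and 1932 to 2497 with no sex term. For the 132 genes around the members, 15 calls became 7 with the floor and 8 with no moderation, and 4 to 15 with a mouse left out, or 10 to 15 with no sex term as well. Floored at log2 of 32, Cdh5 could not be measured. Over the 25 settings that kept 1 value per gene, 22 to 32 members were negative where all 37 had a change. With the floor 20 were negative and 9 positive, the rest lying at the floor, and the members' median log2 change ran from -0.20 without wild-type 161 to -0.08 with the floor. In every setting run 0 members were called higher, and no called value changed sign. No paired analysis was possible because the genotypes share no mouse numbers. Weak signal and 4 mice per group set the limits.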
